A study of Xenopus laevis with 6 samples.

Results

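Chaperones and their partners of the cytosol and mitochondria were followed in Xenopus laevis animal pole explants with and without NICD, the intracellular domain of the Notch receptor. They were taken by a rule on gene symbols: the HSP70, HSP90, HSP110 and small heat shock proteins, the J-domain proteins, the TRiC/CCT chaperonin, prefoldin, the BAG proteins, HSP90 co-chaperones, the FKBP and cyclophilin prolyl isomerases, and the heat shock factors hsf1 and hsf2. The rule took 87 of the 7531 symbols that the array carried, or 69 genes once the copies ending in .L and .S were merged. X. laevis is an allotetraploid frog, and .L and .S name the copies of a gene on its long and short ancestral chromosomes (homeologs). The rule left out the best known chaperones of the endoplasmic reticulum (ER). Even so, some members are known in mammals as proteins of other compartments: fkbp2, fkbp7, fkbp9, fkbp10, fkbp11, fkbp14, ppib, dnajb12, dnajb14 and dnajc1 of the ER, and ppie, ppig, ppih and dnajc8 of the nucleus. The members are therefore described by role rather than as proteins of a single compartment.

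The study, on Notch signalling in the making of glia, measured 4 untreated explant samples, which the design text calls pooled, and 2 samples from embryos injected with NICD. All were cut at stage 8, when the animal pole is still uncommitted, and kept in culture until intact embryos of the same age were at stage 20. Neither the dose nor the form of the injected NICD is given in the sources used here. No sample injected with a control was among those analysed, so an effect of injection cannot be told apart from that of NICD. No label tells if the replicates are separate experiments, and p-values reflect just the scatter of these samples, possibly a technical one. The explants hold several cell types, and fewer cells of a type cannot be told apart from less RNA per cell.

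Chaperones bind unfolded or partly folded proteins and keep them from aggregating. HSP70 works in cycles of ATP hydrolysis that J-domain proteins start and exchange factors such as BAG proteins end, and it passes some clients to HSP90. TRiC/CCT is a ring made of different subunits that encloses actin, tubulin and other clients, some of which reach it through prefoldin. HSP60 (hspd1) and its lid HSP10 (hspe1) are the corresponding chamber of the mitochondrial matrix. Prolyl isomerases turn the bond before proline, often a slow step of folding, and heat shock factors switch on many of these genes under stress. In the frog embryo, Notch signalling is known for deciding which cells of the epidermis and nervous system differentiate and which stay progenitors.

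Values are MAS5 signals, a brightness in arbitrary units that depends on each probe set, so levels are compared only between arrays for 1 probe set. The median signal of an array lay between 156 and 179. By their hybridization dates the arrays fell on 2 days, called processing days here. NICD 1 ran with untreated 1 and 2 on the first, NICD 2 with untreated 3 and 4 on the second. Both NICD arrays ran in a fluidics module that held no untreated array, so treatment cannot be told apart from module. The 3' to 5' signal ratio of gapdh, a sign of RNA quality, was 2.70 to 3.54 in untreated arrays, 4.21 in NICD 1 and 2.98 in NICD 2. Markers of differentiated skin were lower with NICD: the summed signal of 11 multiciliated cell symbols was 10400.2 to 13105 untreated and 1594 to 1973 with NICD (9 of 10 tested fell), that of 7 ionocyte symbols 7744 to 11957 and 276 to 457 (7 of 7 fell), and that of 5 goblet and small secretory cell symbols 24977 to 37869.7 and 1547 to 3185 (3 of 3 fell). The 10 epidermis symbols summed to 69836 to 109963 untreated and 37285 to 41487 with NICD (7 of 10 fell). The 11 neural progenitor symbols summed to 1684 to 2326 untreated and 19070.1 to 20189.5 with NICD (8 of 10 tested rose), and the 18 proliferation symbols to 15639 to 16505 and 30550.4 to 37195 (11 of 18 rose). Of the list for cell death and dissociation stress, bax.S was the 1 symbol found, at 218 to 385 untreated and 395 to 442 with NICD, and it did not pass. Of those that rose, zic1.S, zic2.L, mcm3.L and ccnb1.S passed the filter on dim probe sets through the NICD arrays alone, where they are high. Some that fell, such as foxi1.L and tekt2.S, passed it through the untreated arrays alone. Without the filter the numbers that rose or fell in these lists were the same. No symbol of these lists was at 0. Their part in the chaperone changes below was not tested.

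Of the 87 chaperone symbols, 77 were bright enough to be tested. With NICD, 7 rose and 10 fell, and 48 of the 77 had a change under 0.5 in size on the log2(signal + 32) scale, on which all changes are given. The share of all probe sets with a change under 0.5 was not taken, so the 48 cannot be set beside the whole array. The largest increases were those of hspb7.L, a small heat shock protein, and fkbp9.L, an ER prolyl isomerase. The largest decreases were those of the prolyl isomerase fkbp1b.L, the J-domain protein dnajb14.S and the chaperonin subunit cct4.L. The 7 that rose were 9.09% of the tested members, beside 15.3% of all 10368 probe sets tested, and the 10 that fell were 13.0%, beside 16.2%. In either direction 22.1% of the members passed an adjusted p of 0.05 in limma, beside 31.6% of all probe sets. The median change over all 87 symbols was 0.02, beside 0.04 over all 15491 probe sets. With at least a 2-fold change, 3 rose and 8 fell, and 22% of all probe sets passed in either direction.

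Changes ran from -1.98 to 2.50. Both NICD arrays lay outside the range of the 4 untreated arrays for 32 of the 87 symbols, 13 above and 19 below, beside 41.8% of all probe sets in either direction. All 17 called members were among them, and so were 13 that were tested without a call. Without the filter on dim probe sets, 4 members rose and 9 fell, beside 10.2% and 10.6% of all probe sets (20.8% in either direction). With the processing day as a block, 9 rose and 14 fell, beside 20.4% and 19.8% (40.2% in either direction). Without untreated 2 or untreated 4 there were 4 increases each. Of all 10368 probe sets, 1390 and 1349 rose in these refits, beside 1591 with every array. Without NICD 1 or NICD 2, fewer members and fewer of all probe sets passed in each direction. Under each of 17 other settings, left-out arrays included, calls held for 8 members: hspb7.L, fkbp9.L, fkbp9.S, fkbp1b.L, dnajb14.S, cct4.L, cct4.S and cct5.S.

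**Figure D1:**
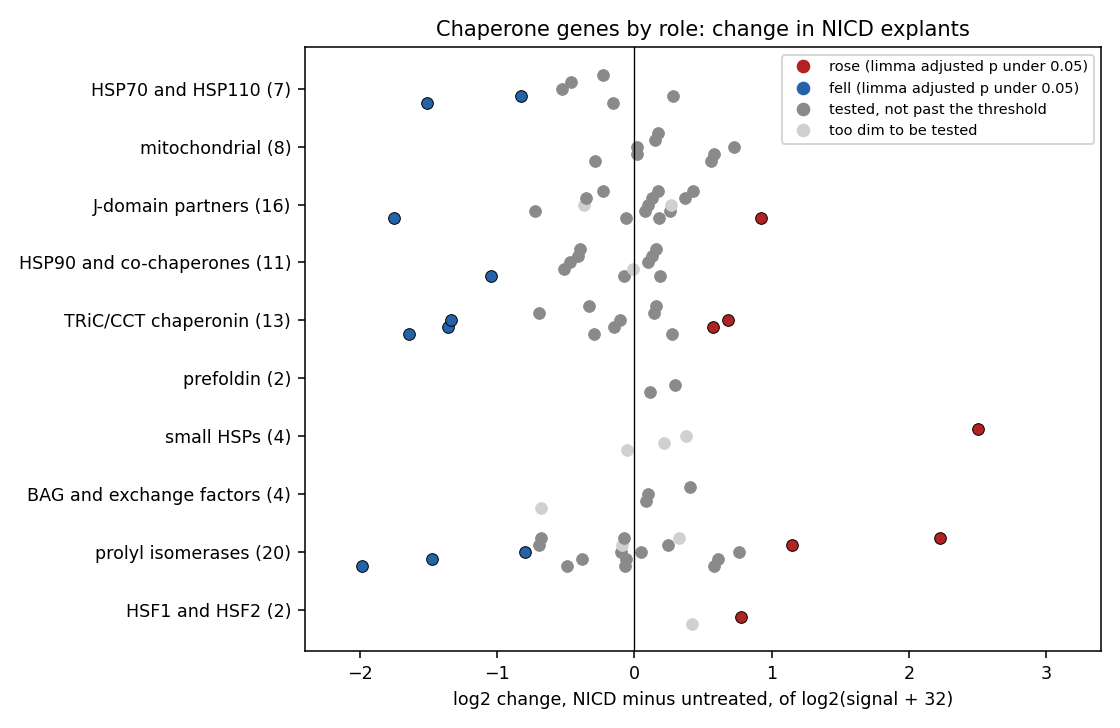
Change of each of the 87 chaperone symbols, NICD minus untreated, on the log2(signal + 32) scale (x axis), in rows by role with the number of symbols in brackets. Each point is 1 symbol: red rose and blue fell at a limma adjusted p under 0.05, dark grey did not pass, and light grey was too dim to be tested. Most points lie between -0.5 and 0.5, and the points farthest out are hspb7.L and fkbp9.L on the right and fkbp1b.L on the left.

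Of 13 chaperonin subunit symbols, all tested, 3 fell, 2 rose and 8 did not pass. The 5 called were 38.5%, near the 31.6% of all probe sets called in either direction. Both copies of cct4, the delta subunit, fell, and so did cct5.S, the epsilon subunit. cct4.L read 392, 386, 469.7 and 393 in untreated 1 to 4 and 101 and 119 in NICD 1 and 2. cct4.S read 2348, 2729, 2679 and 2432 in untreated 1 to 4 and 1211 and 802 in NICD 1 and 2. cct5.S read 3014, 2468, 3699 and 2709.8 in untreated 1 to 4 and 1084 and 1176 in NICD 1 and 2. Each of these probe sets was lower in both NICD arrays than in any untreated array. cct4.L changed by -1.64 ± 0.21 (SE; n = 4 and 2; limma adjusted p = 0.000364), cct4.S by -1.34 ± 0.23 (adjusted p = 0.00169) and cct5.S by -1.36 ± 0.22 (adjusted p = 0.00146). On the 2 days the change of cct4.L was -1.66 on day 1 and -1.62 on day 2, and that of cct5.S -1.31 on day 1 and -1.40 on day 2.

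The symbols that rose were cct2.S, the beta subunit, and cct6a.S, the zeta subunit. cct2.S read 1579, 1423, 1445 and 1056 in untreated 1 to 4 and 2089 and 2321 in NICD 1 and 2. cct6a.S read 1629, 1547, 1786 and 1549 in untreated 1 to 4 and 2439 and 2428 in NICD 1 and 2. Both NICD arrays were above all untreated arrays for each, but the steps were small. cct2.S changed by 0.68 ± 0.23 (SE; n = 4 and 2; limma adjusted p = 0.0451), and cct6a.S by 0.57 ± 0.20 (adjusted p = 0.0499). Both calls were lost in limma without NICD 2 (adjusted p = 0.213 and 0.167) and without NICD 1 (0.101 and 0.14). Without the filter the adjusted p values were 0.0551 and 0.0556. Of 17 other settings, 9 ended the call of cct2.S and 12 that of cct6a.S. The array carried 2 further probe sets for cct2.S, whose changes were 1.17 ± 0.22 and 1.15 ± 0.22 (SE; limma adjusted p = 0.00265 and 0.00344).

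Among the other 8 subunit symbols, cct5b, an epsilon symbol listed with no .L or .S, did not pass. cct5b read 2321, 2555, 3454 and 2564 in untreated 1 to 4 and 2198 and 2181 in NICD 1 and 2. The NICD arrays were just under the lowest untreated array, and the change was -0.29 ± 0.22 (limma adjusted p = 0.342). cct7.S, of the eta subunit, was also lower in both NICD arrays than in any untreated one, with a change of -0.69 ± 0.28 (limma adjusted p = 0.0895). The log2 difference was -0.33 (.L) and 0.16 (.S) for the alpha subunit tcp1, 0.14 and -0.10 for the theta subunit cct8, -0.15 for cct7.L and 0.28 for cct3.S, the gamma subunit. Groups overlapped in each of these, and none passed. Of prefoldin, which hands clients to the chaperonin, the rule took 2 symbols, and neither passed in limma (0 at an unadjusted p under 0.05). Of all probe sets tested, 31.6% passed. pfdn5.S read 882, 747, 987 and 1220.4 in untreated 1 to 4 and 878 and 1201 in NICD 1 and 2. pfdn6.S read 628, 389, 499 and 467 in untreated 1 to 4 and 614 and 603 in NICD 1 and 2. The groups overlapped for both, with changes of 0.12 ± 0.26 and 0.30 ± 0.24 (limma adjusted p = 0.762 and 0.376). The prefoldin subunit vbp1, whose symbol is outside the rule, had differences of -0.58 ± 0.28 (.L) and 0.32 ± 0.24 (.S). Neither copy of vbp1 passed (limma adjusted p = 0.151 and 0.326), and the groups overlapped in each.

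**Figure D2:**
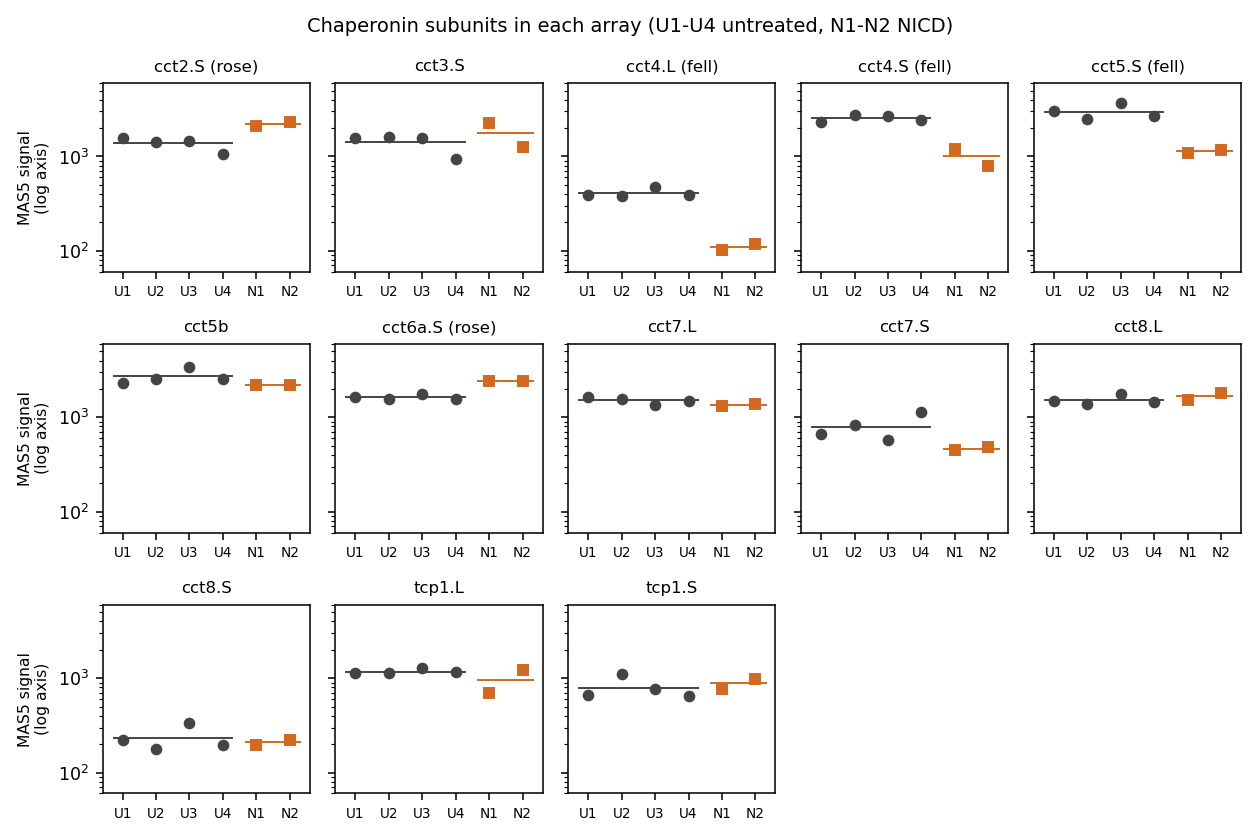
MAS5 signal (y axis, log scale) of the 13 chaperonin symbols in each array: circles are untreated 1 to 4, squares NICD 1 and 2, and lines the mean of each group. In cct4.L, cct4.S and cct5.S both squares lie below all circles, and in cct2.S and cct6a.S above them.

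Among the cytosolic HSP70 and HSP110 proteins, 2 of 7 tested symbols fell and none rose in limma (0 higher at an unadjusted p under 0.05). That is 28.6% called, beside 31.6% of all probe sets. hspa8.L, the constitutive HSP70 of the cytosol, was 1 of them. hspa8.L read 15205, 12635, 18803 and 22564 in untreated 1 to 4 and 9468 and 9591 in NICD 1 and 2. The NICD arrays were the lowest, and untreated 3 and 4 were higher than untreated 1 and 2. hspa8.L changed by -0.82 ± 0.23 (SE; n = 4 and 2; limma adjusted p = 0.0198). The call was lost in limma without NICD 1, without NICD 2 and with the replicate number as a block. In that block untreated 3 and 4 do not inform the change, as no NICD array shares their numbers. The other was hsp70.L, a form known for its induction by heat. hsp70.L read 106, 115, 287 and 135 in untreated 1 to 4 and 69.8 and 7.9 in NICD 1 and 2. The NICD arrays were the lowest, far more so on the second day, on which untreated 3 was the highest. hsp70.L changed by -1.51 ± 0.43 (SE; n = 4 and 2; limma adjusted p = 0.0225). Its change was -0.48 on day 1 and -2.53 on day 2, and without NICD 2 it was -0.83. The call of hsp70.L was lost without NICD 2 and with the replicate number as a block.

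hspa1l.S, a further HSP70, was lower in both NICD arrays than in any untreated array, with a change of -0.52 ± 0.25 (limma adjusted p = 0.132). It passed once the day was a block (adjusted p = 0.0327), and its change was -0.16 on day 1 and -0.89 on day 2. hsph1.L and hspa4.S are HSP110 proteins, which exchange the nucleotide of HSP70. Their changes were -0.46 ± 0.38 and -0.15 ± 0.26 (limma adjusted p = 0.398 and 0.684). hspa14, an HSP70 that binds ribosomes in mammals, had differences of 0.28 (.L) and -0.23 (.S). The groups overlapped in all 4 of these probe sets.

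Of the HSP90 group, 1 of 10 tested symbols fell and none rose in limma (0 higher at an unadjusted p under 0.05), beside 16.2% and 15.3% of all probe sets. It was hsp90ab1.S, the constitutive cytosolic HSP90. hsp90ab1.S read 2885, 2940.0, 3819.7 and 3207 in untreated 1 to 4 and 1801 and 1305 in NICD 1 and 2. Every untreated array exceeded both NICD arrays. hsp90ab1.S changed by -1.04 ± 0.22 (SE; n = 4 and 2; limma adjusted p = 0.00602), or -0.68 on day 1 and -1.40 on day 2. Without NICD 2 the adjusted p in limma was 0.0729. Among the co-chaperones, cdc37.S, which brings kinases to HSP90, was lower in both NICD arrays than in the untreated ones but did not pass (-0.47 ± 0.22, limma adjusted p = 0.126). The difference was 0.10 ± 0.28 for stip1.L, which links HSP70 to HSP90, and for ptges3.L, the p23 protein that binds closed HSP90, it was -0.39 ± 0.22 (limma adjusted p = 0.811 and 0.199). Differences were -0.08 (.L) and -0.51 (.S) for the HSP70-interacting protein st13, and -0.41 and 0.18 for ahsa1, the activator of the HSP90 ATPase. The isomerases that dock on HSP90, fkbp4.S and ppid.S, had differences of 0.16 and 0.13. Of these co-chaperones none passed, and the groups overlapped in all but cdc37.S.

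The J-domain proteins outside mitochondria had 14 tested symbols of 16, of which 1 fell and 1 rose (14.3% called, beside 31.6% of all probe sets). dnajb14.S, in mammals a J-domain protein of the ER membrane that faces the cytosol, fell. dnajb14.S read 205, 336, 373 and 334 in untreated 1 to 4 and 76.8 and 60.1 in NICD 1 and 2. The NICD arrays lay well under every untreated array. dnajb14.S changed by -1.75 ± 0.27 (SE; n = 4 and 2; limma adjusted p = 0.00087). dnajc8.S, which is tied to the splicing machinery in human cells, rose. dnajc8.S read 639, 553, 503 and 478 in untreated 1 to 4 and 983 and 1122 in NICD 1 and 2. Both NICD arrays lay above every untreated array. dnajc8.S changed by 0.92 ± 0.22 (SE; n = 4 and 2; limma adjusted p = 0.0104). Its call was lost without NICD 2 and with the replicate number as a block.

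The partners that serve HSP70 in the cytosol at large did not pass. dnaja1.L read 5808, 5643, 6330.4 and 6074 in untreated 1 to 4 and 6391 and 7121 in NICD 1 and 2. The NICD arrays were slightly above the untreated ones, with a change of 0.18 ± 0.17 (limma adjusted p = 0.475). The difference was 0.26 (.L) and -0.23 (.S) for dnaja2, a close relative, and 0.43 for dnajc7.L, which binds HSP70 and HSP90. dnaja4.1.L, of the same family as dnaja1, had a difference of -0.72 ± 0.29 (limma adjusted p = 0.081) and passed with the day as a block (0.0336). For the other 7 tested symbols the difference ran from -0.35 to 0.37, and none passed. Among them, dnajc27.L, a small GTPase with a J domain, was lower in both NICD arrays than in any untreated one (-0.35 ± 0.21, limma adjusted p = 0.241). Groups overlapped for dnajc21.L, which acts in ribosome assembly in other species, for dnajc5.S, a protein of synaptic vesicles, for the ER proteins dnajb12.S and dnajc1.S, and for dnaja4.2.S and dnajc25.S. dnajb2.L and dnajc9.L were too dim to be tested.

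The mitochondrial cyclophilin ppif.L, which rose, is grouped with the prolyl isomerases below. Among the 8 tested symbols of the mitochondrial group itself none passed, beside 31.6% of all probe sets called in either direction. At an unadjusted p under 0.05 in limma, 1 of the 8 was higher and 0 were lower. The largest change was that of hspd1.S, the mitochondrial HSP60. hspd1.S read 762, 532, 1487 and 1007 in untreated 1 to 4 and 1229 and 1786 in NICD 1 and 2. Each NICD array exceeded the untreated arrays of its own day, but the groups overlapped, and each group was higher on the second day. The log2 difference was 0.72 ± 0.36 (SE; n = 4 and 2; limma adjusted p = 0.16), or 0.91 on day 1 and 0.53 on day 2. It passed once the day was a block (adjusted p = 0.0341), and also without untreated 3 (limma adjusted p = 0.0438). hspe1.L, the HSP10 lid, was higher in both NICD arrays than in any untreated array, with a change of 0.56 ± 0.22 (limma adjusted p = 0.0802).

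dnajc19.L read 1582, 1783, 729 and 1311 in untreated 1 to 4 and 1829 and 2037 in NICD 1 and 2. This J-domain protein of the import motor was highest in the NICD arrays by a narrow margin, and untreated 3 was the lowest (0.58 ± 0.33, limma adjusted p = 0.212). hspa9, the mitochondrial HSP70, had differences of 0.02 (.L) and 0.17 (.S). The values on single days were 0.81 on day 1 and -0.77 on day 2 for the .L copy and 0.53 on day 1 and -0.18 on day 2 for the .S copy, so the sign differed between the days in both. hspd1.L, the other copy of HSP60, had a difference of 0.02. For dnaja3.L, the J-domain partner of hspa9, and dnajc11.S, a further mitochondrial J-domain protein, it was 0.15 and -0.29.

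Of the small heat shock proteins, which hold unfolded proteins without ATP, hspb7.L alone was bright enough to be tested, and it rose the most of all 87 symbols. hspb7.L read 208, 200.4, 139 and 131 in untreated 1 to 4 and 1038 and 1150.3 in NICD 1 and 2. Both NICD arrays were several times brighter than any untreated array. hspb7.L changed by 2.50 ± 0.25 (SE; n = 4 and 2; limma adjusted p = 6.86e-05), and a second probe set of the gene changed by 2.18 ± 0.23 (SE; limma adjusted p = 0.000104). In mammals hspb7 is known from heart and skeletal muscle. The summed signal of 8 muscle and mesoderm symbols was 1650.4 to 2134 untreated and 1479 to 1497 with NICD. Of the 6 tested, 1 rose (tbxt.S, the early mesoderm factor brachyury) and 2 fell (ckm.L and tnni2.S), and their part in the rise of hspb7.L was not tested. hspb1.L and hspb1.S were at 41.3 or less in all arrays, and hspb8.L read 54 to 91.

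Of the BAG proteins and HSP70 exchange factors, none of 3 tested symbols passed in limma (0 at an unadjusted p under 0.05). Of all probe sets tested, 31.6% passed. bag6.S read 1569, 1662, 1641 and 1163 in untreated 1 to 4 and 1609 and 1591 in NICD 1 and 2. This protein guides tail-anchored membrane proteins, and its NICD arrays lay within the untreated range (0.10 ± 0.23, limma adjusted p = 0.779). bag6.L had a difference of 0.40 ± 0.23 (limma adjusted p = 0.204), with both NICD arrays above the untreated ones. For hspbp1.L, an exchange factor of HSP70, it was 0.08 ± 0.23 (limma adjusted p = 0.81), with overlap. bag3.L read 12.7, 44.1, 43.8 and 37.5 in untreated 1 to 4 and 11.3 and 6.0 in NICD 1 and 2. This stress-induced partner of small heat shock proteins was too dim to be tested, and its NICD arrays were the lowest.

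The heat shock factors were each represented once. hsf2.L read 403, 400.0, 613 and 476 in untreated 1 to 4 and 727 and 926 in NICD 1 and 2. hsf2.L, a factor known for roles in development as well as stress, was higher in both NICD arrays than in any untreated array. hsf2.L changed by 0.77 ± 0.25 (SE; n = 4 and 2; limma adjusted p = 0.0378). The call was lost without the filter (adjusted p = 0.0508) and when any array other than untreated 3 was left out, with limma adjusted p values up to 0.24 without NICD 2. hsf1 read 6.0, 38.6, 48.4 and 48.3 in untreated 1 to 4 and 57.8 and 50.9 in NICD 1 and 2. hsf1, the main factor of the heat shock response, was too dim to be tested.

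**Figure D3:**
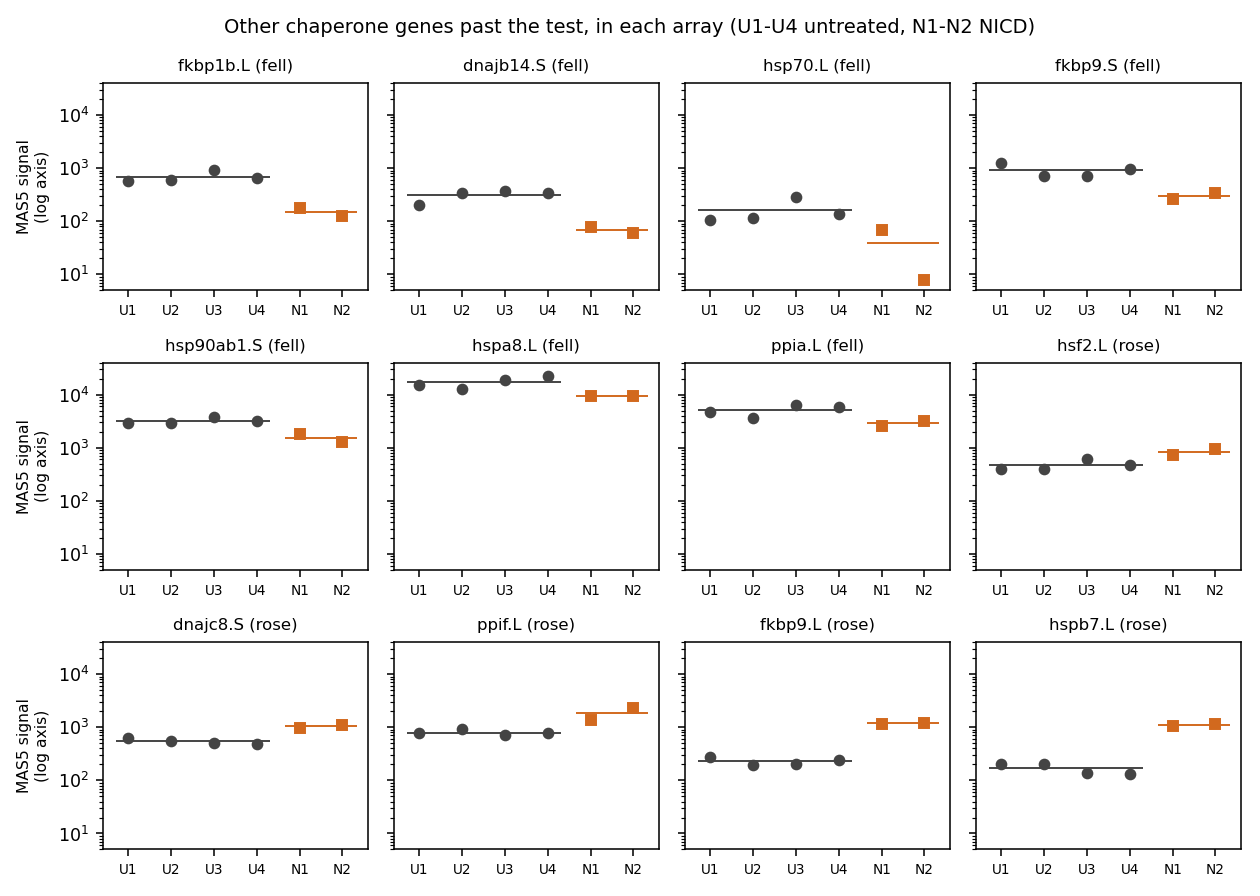
MAS5 signal (y axis, log scale) of the called members outside the chaperonin in each array: circles are untreated 1 to 4, squares NICD 1 and 2, and lines the mean of each group. In every panel both squares lie on the same side of all 4 circles, and the gap is widest in hspb7.L and fkbp9.L.

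The prolyl isomerases outside the HSP90 group made up 20 symbols, of which 18 were tested, 2 rose and 3 fell. This was 27.8% called, beside 31.6% of all probe sets. fkbp1b.L, a calcium channel partner in mammals, fell the most of all 87. fkbp1b.L read 576, 606, 928 and 665 in untreated 1 to 4 and 176 and 124 in NICD 1 and 2. The NICD arrays were far below the untreated range. fkbp1b.L changed by -1.98 ± 0.26 (SE; n = 4 and 2; limma adjusted p = 0.000362), and a second probe set changed by -0.94 ± 0.23 (SE; limma adjusted p = 0.0112). The copies of fkbp9, an isomerase of the ER in mammals, went opposite ways. fkbp9.L read 275, 195, 205 and 246 in untreated 1 to 4 and 1168 and 1208 in NICD 1 and 2. fkbp9.S read 1226, 710.2, 714 and 971 in untreated 1 to 4 and 264 and 334 in NICD 1 and 2. The .L probe set was higher and the .S probe set lower in both NICD arrays than in any untreated array. fkbp9.L changed by 2.23 ± 0.22 (SE; n = 4 and 2; limma adjusted p = 7.61e-05), and fkbp9.S by -1.47 ± 0.27 (adjusted p = 0.00273).

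ppif.L, the mitochondrial cyclophilin D that acts on the permeability transition pore in mammals, rose. ppif.L read 768, 923, 701 and 769 in untreated 1 to 4 and 1381 and 2293 in NICD 1 and 2. Both NICD arrays were above the untreated ones, NICD 2 the more so. ppif.L changed by 1.15 ± 0.25 (SE; n = 4 and 2; limma adjusted p = 0.00697), and without NICD 2 by 0.79 (adjusted p = 0.0943). ppia.L, the abundant cytosolic cyclophilin A, fell. ppia.L read 4755, 3559, 6386 and 5823 in untreated 1 to 4 and 2567 and 3227 in NICD 1 and 2. Both NICD arrays were below the untreated range by a small margin. ppia.L changed by -0.79 ± 0.26 (SE; n = 4 and 2; limma adjusted p = 0.0396), and 9 of 17 other settings ended its call. Among them were the fit without the filter (limma adjusted p = 0.0575) and the fit with the replicate number as a block. Others were the fits without untreated 1, untreated 3, untreated 4, NICD 1 or NICD 2. A second ppia.L probe set had a difference of 0.16 ± 0.28 (SE; limma adjusted p = 0.69), so the probe sets of this gene had opposite signs.

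Of the 13 tested isomerases that did not pass, ppig.L, which is tied to splicing in mammals, had the largest change (0.76 ± 0.29, limma adjusted p = 0.0665) and passed with the day as a block (0.0242). A second ppig.L probe set had a difference of just 0.10 ± 0.23 (SE; limma adjusted p = 0.768, 0.737 with the block). fkbp2, an ER isomerase, also passed with that block in both copies: the .L probe set had a difference of -0.68 ± 0.37 (limma adjusted p = 0.193, 0.0168 with the block) and the .S probe set of -0.49 ± 0.20 (0.0857 and 0.0368). Differences were -0.10 (.L) and -0.38 (.S) for the ER cyclophilin ppib, and -0.07 and 0.58 for fkbp1a, the binding protein of the drug FK506. The spliceosomal cyclophilins ppie.L and ppih.L were at -0.07 and -0.06, and ppia.S at 0.05. Of the ER isomerases fkbp10.L, fkbp11.L and fkbp14.L, with differences of 0.61, -0.69 and 0.24, fkbp11.L alone had both NICD arrays outside the untreated range. fkbp1b.S and fkbp7.L were too dim to be tested.

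Unequal change of the copies of a gene was tested on the .L minus .S difference in each array. Of 16 chaperone pairs with both copies tested, 1 passed, beside 17.1% of all 719 such pairs. It was fkbp9, whose .L copy went up relative to its .S copy by 3.70 ± 0.25 (SE; limma adjusted p = 4.69e-05). A second probe set of fkbp9.S also fell, by 1.32 on the log2 scale (SE 0.38; limma adjusted p = 0.0249). In cct4 both copies fell, and in 13 pairs neither copy passed. In ppia only the .L copy was called, and the difference between copies did not pass (-0.84 ± 0.40, limma adjusted p = 0.194) except with the day as a block (0.0215). A probe set named for a copy may also bind the other, and the part of this was not tested.

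**Figure D4:**
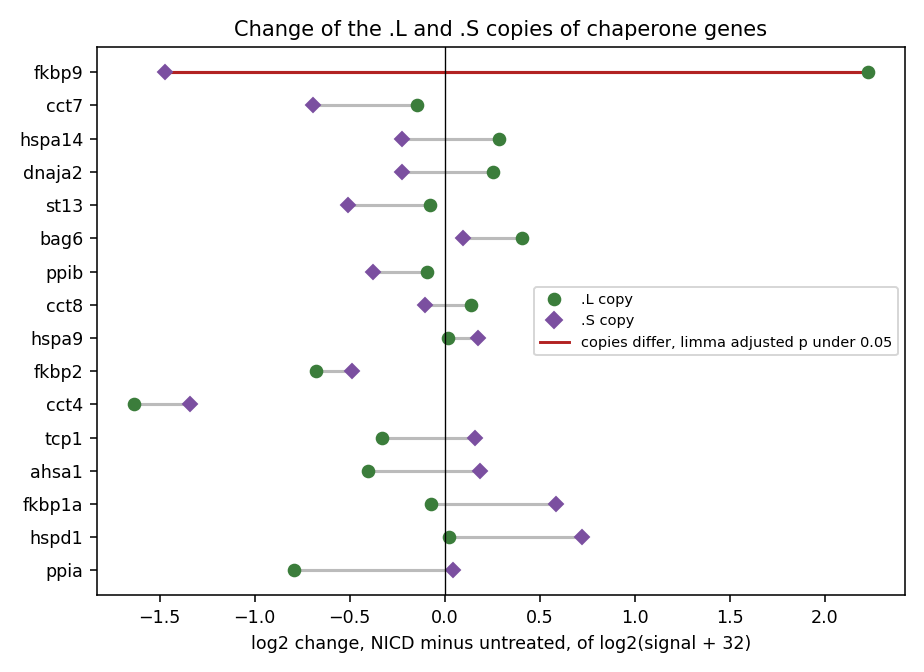
Change of the .L copy (circle) and the .S copy (diamond), NICD minus untreated on the log2(signal + 32) scale (x axis), for the 16 chaperone genes with both copies tested. A line joins the copies and is red where they differ at a limma adjusted p under 0.05, which is so for fkbp9 alone; both cct4 copies lie left of -1.3.

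Each day held 1 NICD and 2 untreated arrays, so the change could be read on each day. Its sign was the same on both days for 62 of the 87 symbols (71.3%), beside 71.1% of all probe sets. A difference of the change between days passed for none of 77 tested members in limma, beside 0.231% of all probe sets. At an unadjusted p under 0.05 there were 7, and the smallest adjusted p was 0.178. The day itself was also tested, a test added after the values were seen: fkbp2.L was lower on the second day (-0.91, limma adjusted p = 0.0393), and no other member passed, beside 1.9% of all probe sets. At an unadjusted p under 0.05 there were 17. The share of all probe sets at an unadjusted p was not taken. Neither this count nor the 7 above can therefore be set beside the whole array.

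**Figure D5:**
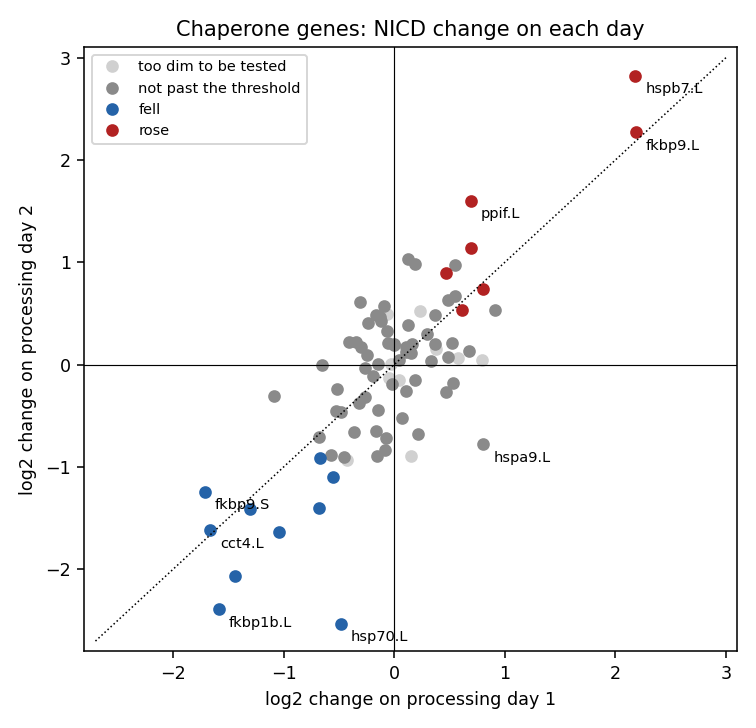
Change of each chaperone symbol on day 1 (x axis, NICD 1 against untreated 1 and 2) and day 2 (y axis, NICD 2 against untreated 3 and 4), both on the log2(signal + 32) scale. Called members must have the same sign on both days, because both NICD arrays lay outside the untreated range in each of them. hsp70.L lies far from the diagonal, with -0.48 on day 1 and -2.53 on day 2.

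Outside the rule, 3 gene lists were read in the same fit: folding in the ER, other folding and quality control, and stress response. These lists were chosen with earlier results of these data known, so their shares are a description and not independent support. Of 25 tested symbols for folding in the ER, none rose and 8 (32%) fell, beside the 16.2% of all probe sets that fell, and the median over the list's 27 symbols was -0.67. At an unadjusted p under 0.05 in limma, 0 were higher and 13 lower. The share of all probe sets at that threshold was not taken, so the 16.2% does not apply to this count. dnajc3.L, an ER J-domain protein that is induced by unfolded proteins, read 1520.4 ± 315 (SD, n = 4) untreated and 188 ± 107 (SD, n = 2) with NICD and changed by -2.89 ± 0.32 (SE; limma adjusted p = 0.000139). hspa5.L, the HSP70 of the ER also called BiP, changed by -2.41 ± 0.58 (SE; limma adjusted p = 0.0106). The lectin chaperone calr.S changed by -1.38 ± 0.37 (SE; limma adjusted p = 0.0163) and the disulfide isomerase pdia4.L by -1.23 ± 0.24 (SE; limma adjusted p = 0.00354). The other copies hspa5.S and calr.L did not pass, with overlapping groups (-1.43 ± 0.66 and -0.86 ± 0.32, SE; limma adjusted p = 0.126 and 0.0685). The count depended on the fit: 14 fell once the day was a block, beside 19.8% of all probe sets. Without NICD 1 more of the list fell and without NICD 2 fewer, while fewer of all probe sets fell in either refit. The calls of hspa5.L and calr.S were lost without NICD 2.

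Of 32 tested symbols of other folding and quality control factors, 1 rose and 4 fell (15.6% in all, beside 31.6% of all probe sets). ruvbl2, an ATPase that works with HSP90 in building large complexes, fell in both copies, by 1.54 ± 0.23 (SE; limma adjusted p = 0.000706) for .L and 1.34 ± 0.21 (SE; limma adjusted p = 0.00098) for .S. pdcl3.L, a phosducin-like protein that binds the chaperonin, changed by -1.07 ± 0.22 (SE; limma adjusted p = 0.00457). grpel1.L, the exchange factor of mitochondrial HSP70, rose and read 337 ± 62.1 (SD, n = 4) untreated and 799.6 ± 193 (SD, n = 2) with NICD. Its change was 1.17 ± 0.25 (SE; limma adjusted p = 0.00568), and the adjusted p without NICD 2 was 0.0741. Of 14 tested stress response symbols, 5 rose and 3 fell (57.1% in all, beside 31.6% of all probe sets). With the day as a block 5 of them fell, beside 19.8% of all probe sets. The largest changes were those of the redox protein txn.L, at -2.59 ± 0.36 (SE; limma adjusted p = 0.000539), and of sesn2.L, a sestrin induced by several stresses, at 2.32 ± 0.23 (SE; limma adjusted p = 6.64e-05). txn.L read 506 ± 175 (SD, n = 4) untreated and 60.2 ± 45.9 (SD, n = 2) with NICD. Both NICD values were under the 40th percentile of their array, so txn.L passed the filter through the untreated arrays alone. It was also called lower without the filter. hmox1.L, the haem oxygenase induced by oxidative stress, changed by 2.10 ± 0.33 (SE; limma adjusted p = 0.00111), and sesn1.L by 2.04 ± 0.28 (SE; limma adjusted p = 0.000466).

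Of the 87 symbols, 15 had more than 1 probe set, with 17 further probe sets beside those used, 16 of them tested. The sign was the same as in the probe set used for 14 of the 17. The test called 5 of them, all in the direction of the probe set used: both of cct2.S and those of hspb7.L, fkbp1b.L and fkbp9.S. Of all probe sets tested, 31.6% were called. Those of cct2.S, hspb7.L and fkbp9.S have a shared-probe suffix and the same cluster number as the probe set used. They may therefore not be independent of it. The 10 symbols too dim to be tested were bag3.L, hsf1, ptges3l.L, dnajb2.L, dnajc9.L, fkbp1b.S, fkbp7.L, hspb1.L, hspb1.S and hspb8.L, and none of the 77 tested had passed the filter through the NICD arrays alone. ahsa1.L, dnajb14.S and hsp70.L had passed it through the untreated arrays alone, and of these dnajb14.S and hsp70.L were called lower. Without the filter the calls of dnajb14.S and hsp70.L held (limma adjusted p = 0.00192 and 0.0361).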

How the data were processed

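Total RNA of 6 explant samples was amplified to biotinylated cRNA and read on an Affymetrix Xenopus laevis array. The submitters' processing notes name MAS5, with no version, and the deposited table holds its linear signal intensity for each probe set. The authors had scaled each array (the mean without the lowest and highest 2% was 500.1). Processing day, which is the hybridization date alone, and fluidics module were taken from the arrays' experiment files, per the file headers. Of 15611 probe sets, 120 controls were left out. Symbols come from the platform annotation, and 86 of the 87 chaperone symbols were matched to RefSeq (Xenopus_laevis_v10.1). The probe set with the highest mean stood for its symbol, and 2 probe sets listed with several symbols were not used.

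Probe sets above the 40th percentile of their array in at least 2 arrays (10368 of 15491) were tested with limma 3.58.1 (R 4.3.3; lmFit, eBayes with a trend, 2-sided) on log2(signal + 32), NICD against untreated, with Benjamini-Hochberg adjustment over all of them and a threshold of 0.05. The pseudocount shrinks the fold changes of dim probe sets, and the number of arrays limits the precision. The members and gene lists were chosen with earlier results of these data known. Values in every array are given for called members with the largest changes, for the brightest and the most changed member of each role, and for hsf1, hsf2 and fkbp9. Alternatives in scaling, pseudocount, filter, variance model, block, probe set choice and left-out arrays were run. Refits without an array kept the probe sets tested, and those without a NICD array assume that the remaining one varies as the untreated arrays do. The deviations from group means of the samples numbered 1 correlated at r = 0.198, and of those numbered 2 at r = -0.231. With 2 NICD arrays these deviations mirror each other, and the samples numbered 2 ran on different days. This check therefore cannot tell if replicate numbers pair the samples. With the replicate number as a block, the change rests on NICD 1 and 2 and untreated 1 and 2 alone.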

Additional observations from a re-analysis of the deposited data

Results flagged for a closer look

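In 7 of the 87 groups of 4 untreated arrays, 1 array stood apart from the other three on the log2(signal + 32) scale by Dixon's ratio, the gap to the nearest array over the whole range. Chance puts about 1 in 20 such groups past the limit of 0.829. cct3.S was low in untreated 4 (ratio 0.922) and cct4.L was high in untreated 3 (0.902). bag6.S was low in untreated 4 (0.838). Among dim probe sets that were not tested, bag3.L (0.829) and dnajc9.L (0.901) were low in untreated 1, hspb1.L was high in untreated 3 (0.921) and hspb8.L was high in untreated 2 (0.874). The call of cct4.L held without untreated 3.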

How the results depend on the processing

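In up to 17 settings run for each gene, which do not include other choices of probe set or threshold, no called member reversed its direction and 8 of the 17 called stayed past the threshold. With 1 probe set for both copies of a gene, which leaves 1 copy of each pair out, 6 rose and 9 fell. Of the other 9, all were lost without NICD 2 and 5 also without NICD 1. The number of members that rose, 7 at first, was 4 without the filter on dim probe sets, 3 with a change of at least 2-fold, and 2 to 6 with 1 array left out. The number that fell, 10 at first, was 6 to 10 with 1 array left out. Among all probe sets, 1016 in place of 1591 rose by at least 2-fold, and with 1 array left out 756 to 1545 rose and 927 to 1563 fell. Median centring gave 5 members higher and 10 lower, beside 1626 and 1654 of all probe sets. Quantile normalization gave 6 and 10, beside 1583 and 1721.

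With the processing day as a block, 14 ER folding symbols fell, 2 other folding factors rose, 5 stress symbols fell, and 198 of all homeolog pairs and 2 chaperone pairs passed. With 1 array left out, 2 to 14 ER folding symbols fell, 0 to 2 other folding factors rose, and 28 to 94 of all homeolog pairs passed. Without the filter, 2 chaperone pairs passed. It could not be told if replicate numbers pair the samples. With the replicate block 5 members rose and 9 fell, beside 1487 and 1529 of all probe sets, and 2 other folding factors rose. The causes of these moves were not tested. MAS5 signals near the background are noisy, which limits what can be said of the 10 dim members.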
